A study of Caenorhabditis elegans with 8 samples.

Results

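The genes described here are the 8 lysosomal lipase genes lipl-1 to lipl-8 and the 2 fasting lipase genes fil-1 and fil-2 of Caenorhabditis elegans, taken by their WormBase symbols and matched to their gene identifiers. All 10 were present among the 20182 genes of the count tables. Counts came from total RNA of whole young adult worms that had eaten double-stranded RNA against rege-1 (RNA interference, RNAi) or a mock control from the first larval stage. The 4 groups of 2 libraries were N2, the laboratory wild type, under mock or under rege-1 RNAi, and the mutant glp-1 (e2141) under mock or under rege-1 RNAi. The glp-1 worms were kept at 25 °C, where this temperature-sensitive allele of a Notch receptor blocks germline proliferation, and the temperature of the N2 worms is not given in the sources used here, so that strain and temperature cannot be told apart. The labels do not say whether the libraries of a group came from separate cultures, and a p below covers no more than the variation between the libraries, which may be technical.

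Lysosomal acid lipases are alpha/beta hydrolases that free fatty acids from triglycerides and cholesteryl esters inside the lysosome, and in worms several of them act in the intestine, the main fat store. Transcription of lipl-1 to lipl-3 is known to rise in fasted worms, when the helix-loop-helix factor HLH-30 replaces the repressor MXL-3 at their promoters, and lipl-4 is known for extending life through a lipid signal carried by LBP-8 to the nuclear receptors NHR-49 and NHR-80. The fil genes were named as lipases induced by fasting that depend on the endoplasmic reticulum stress sensor IRE-1 and the chaperone HSP-4. REGE-1 is a relative of the mammalian RNase Regnase-1 that is known to degrade the mRNA of the transcription factor ETS-4, and worms lacking it are lean. The comparison asked which of these lipase genes moved with that treatment in each strain.

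The libraries held 26127079 to 30093967 counts for mRNA and 464385 to 684124 for introns, and the 10 genes together took 0.0443 to 0.101% of the mRNA counts. Counts of the targeted gene rege-1 were higher and not lower in the libraries labelled RNAi (log2 change 2.70, SE 0.15 in N2 and 2.11, SE 0.15 in glp-1). These counts were not split into the worms' own mRNA and the double-stranded RNA against rege-1 that was eaten. They therefore do not measure the knockdown, and every direction below rests on the labels. The mRNA of ets-4 rose in both strains (edgeR log2 change 2.25, SE 0.17, with adjusted p = 8.56e-06 for N2, and 1.93, SE 0.17, with adjusted p = 3.85e-05 for glp-1). Germline transcripts were present in the glp-1 libraries, where 20 of 20 germline markers had counts and their summed level was 5084 to 5265 CPM under mock against 5835 to 7196 CPM in N2 mock. CPM is counts per 1e6 of the library total after TMM scaling. Of these 20 markers 3 fell in glp-1 under mock, with glh-1, which encodes an RNA helicase of germ granules, at a log2 change of -1.09.

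Of the 10 genes, 9 lie on chromosome V, which holds 25.2% of the genes of the tables that were found in the annotation, and lipl-7 lies on chromosome IV. On the WBcel235 assembly lipl-1 (WBGene00010062, plus strand), spans 12919986 to 12921692 with 5 exons. The gene lipl-2 (WBGene00009773, plus strand) spans 9791567 to 9793241 with 5 exons, and lipl-5 (WBGene00022642, plus strand) spans 385746 to 387740. The gene lipl-3 (WBGene00020016, minus strand) spans 521595 to 524218 with 7 exons, and fil-1 (WBGene00011321, plus strand) spans 14993838 to 14995207 with 3 exons. The genes do not adjoin each other, since no member was the nearest protein-coding neighbour of another. Only lipl-3 and lipl-4 overlap another annotated gene, and srw-107, which overlaps lipl-3 on the same strand, had 0 counts in every library. The coding length in the files was 3 bases longer than in the annotation for 8 genes, and differed by more for lipl-6 (2055 against 1773 bases) and fil-2 (1023 against 963 bases), whose levels per length rest on the length in the files.

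The 10 genes differed widely in level. Per kb of coding length, lipl-5 had the highest level in each of the 4 groups, at 306 ± 23.7 CPM per kb in N2 mock and 334 ± 2.0 in glp-1 mock (mean ± SD, n = 2 throughout). In N2 mock lipl-2 came next at 33.0 ± 0.47, then lipl-7 at 23.9 ± 5.02 and lipl-1 at 18.5 ± 1.12, with no overlap between the libraries of neighbours in this order. The level of fil-1 was 1.99 ± 0.463 CPM per kb. Below it lipl-4, lipl-3, fil-2 and lipl-6 ranged from 0.468 to 0.276 CPM per kb in group means, and each overlapped its neighbour in that order. The last gene, lipl-8, had 3 counts in 1 of the N2 mock libraries and 0 in the other.

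The order changed in the libraries labelled RNAi. In N2 lipl-1 moved from the fourth to the second place, at 322 ± 43.3 CPM per kb next to 392 ± 34.3 for lipl-5, and fil-1 passed lipl-7, at 35.8 ± 7.0 against 22.7 ± 1.53. In glp-1 lipl-1 likewise moved from the fourth to the second place, from 4.17 ± 0.174 to 167 ± 25.6 CPM per kb. Its neighbours in that order did not overlap it in any of these groups. At 0 to 3 counts per library for lipl-8, and 2 to 5 for lipl-4 in the libraries labelled RNAi, their places at the end of the order are not firm.

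**Figure D1:**
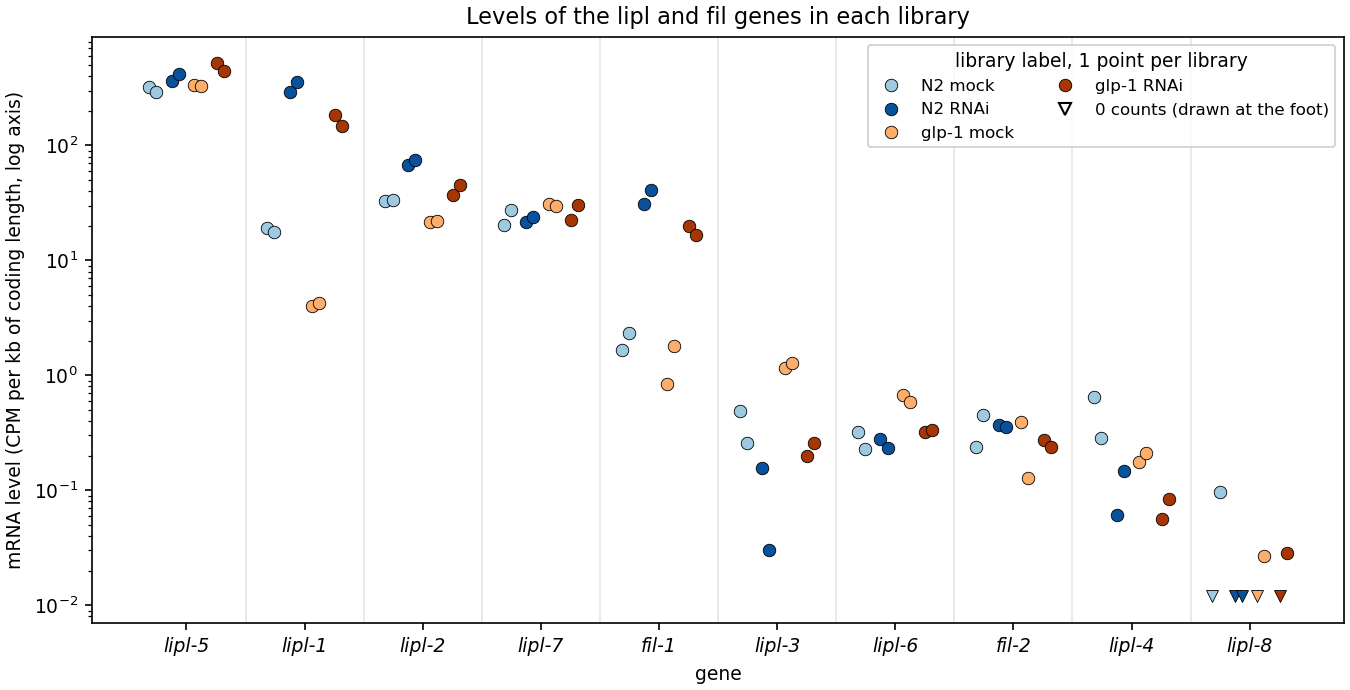
Level of each of the 10 genes in the 8 libraries, in CPM per kb of coding length on a log axis, with 1 point per library and triangles for libraries with 0 counts. The points of lipl-1 and fil-1 in libraries labelled RNAi sit far above their mock points in both strains, while those of lipl-7 and fil-2 lie among each other.

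Among the tested lysosomal lipase genes lipl-1 had the largest log2 change in both strains. Its mRNA counts in N2 were 669 and 553 under mock against 9362 and 11706 in the libraries labelled RNAi. In glp-1 they were 159 and 161 against 6483 and 5247. Both strains were high in every library labelled RNAi, with no overlap with mock, and glp-1 started from the lower mock level. The level rose from 22.5 ± 1.37 to 392 ± 52.7 CPM in N2, which is 17.5-fold or a log2 change of 4.13 (SE 0.17, edgeR adjusted p = 1e-07), and from 5.08 ± 0.212 to 203 ± 31.2 CPM in glp-1, which is 40.0-fold or a log2 change of 5.32 (SE 0.19, adjusted p = 2.87e-08).

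The gene lipl-2, a close family member of lipl-1 by name, rose by less. Its counts were 1152 and 1059 under mock and 2194 and 2522 in the libraries labelled RNAi for N2. In glp-1 the pairs were 867 and 843 under mock and 1310 and 1626 with RNAi. The groups did not overlap in either strain. Its log2 change was 1.11 (SE 0.14, edgeR adjusted p = 0.000339) for N2 and 0.91 (SE 0.14, adjusted p = 0.00251) for glp-1. The call in glp-1 ended when either mock library of glp-1 was left out (adjusted p = 0.0726 without replicate 1 and 0.0528 without replicate 2).

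The fasting lipase gene fil-1 rose about as far as lipl-1 in N2, from a low level. Its counts in N2 were 47 and 59 under mock and 806 and 1100 in the libraries labelled RNAi. In glp-1 they were 27 and 55 against 569 and 479. All 4 libraries labelled RNAi lay above all 4 mock libraries. Its log2 change was 4.17 (SE 0.3, edgeR adjusted p = 5.81e-06) in N2, from 1.97 ± 0.458 to 35.5 ± 6.93 CPM, and 3.79 (SE 0.31, adjusted p = 2.15e-05) in glp-1, from 1.31 ± 0.671 to 18.2 ± 2.29 CPM. Its namesake fil-2 had 4 to 13 counts in each of the 8 libraries, with all groups overlapping, and log2 changes of 0.08 (SE 0.57, adjusted p = 0.981) for N2 and -0.05 (SE 0.61, adjusted p = 0.99) for glp-1. At so few counts, and with these SEs, more than a small change of fil-2 could be missed. For lipl-3, also at few counts, a log2 change of -1.99 (SE 0.66, edgeR adjusted p = 0.153) in N2 did not pass.

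The gene lipl-3 went the opposite way from lipl-1, at low counts. In glp-1 its counts were 46 and 48 under mock and 7 and 9 in the libraries labelled RNAi, which did not overlap. In N2 they were 17 and 8 against 5 and 1. The minimum count of the test was reached in both glp-1 mock libraries, in the N2 mock library with 17 counts, and in no library labelled RNAi. So lipl-3 was tested through the group where it was high, which is also the high side of its fall in glp-1. It fell in glp-1 with a log2 change of -2.41 (SE 0.45, edgeR adjusted p = 0.0132), while the value in N2 was -1.99 (SE 0.66, adjusted p = 0.153). The call in glp-1 ended when mock replicate 1 (adjusted p = 0.0819), mock replicate 2 (0.105) or RNAi replicate 1 (0.135) of that strain was left out. Thus lipl-1 and lipl-3, which are known as a pair of fasting-induced lipase genes, had log2 changes of opposite sign in both strains, although in N2 that of lipl-3 did not pass.

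The most abundant member, lipl-5, had counts of 11153 and 9002 under mock and 11742 and 13738 in the libraries labelled RNAi for N2. In glp-1 they were 13104 and 12402 against 18025 and 15487. Scaled to library size the RNAi libraries were the higher ones in both strains, but the log2 changes of 0.36 (SE 0.15, edgeR adjusted p = 0.294) for N2 and 0.52 (SE 0.15, adjusted p = 0.118) for glp-1 did not pass. The value in glp-1 passed in DESeq2 (adjusted p = 0.0339) and without glp-1 RNAi replicate 2 (edgeR adjusted p = 0.0114).

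The remaining tested genes, lipl-6 and lipl-7, did not pass in either strain. The counts of lipl-7 ranged from 700 to 1217 over the 8 libraries, and its log2 change was -0.07 (SE 0.18, edgeR adjusted p = 0.941) for N2 and -0.20 (SE 0.18, adjusted p = 0.763) for glp-1. For lipl-6 the glp-1 counts were 45 and 37 under mock against 19 and 20 with RNAi (log2 change -0.94, SE 0.32, adjusted p = 0.252), and 12 to 19 in the 4 N2 libraries (log2 change -0.12, SE 0.38, adjusted p = 0.952). The 2 genes below the minimum count of the test were lipl-4 and lipl-8. The lysosomal lipase gene lipl-4, known to be induced in glp-1 mutants that lack a germline, had counts of 23 and 9 in N2 mock, 2 and 5 in N2 RNAi, and in glp-1 7 and 8 under mock against 2 and 3 with RNAi. Its counts were thus lower in the libraries labelled RNAi than under mock in both strains, with no overlap, and no higher in glp-1 mock than in N2 mock. Germline transcripts were present in these glp-1 libraries, so this is not a like comparison with glp-1 worms that lack a germline. With no minimum count the log2 changes of lipl-4 with RNAi were -2.12 (SE 0.67, adjusted p = 0.106) for N2 and -1.44 (SE 0.8, adjusted p = 0.653) for glp-1. The gene lipl-8 had 0 counts in both N2 RNAi libraries, which allows up to 0.056 CPM (3 counts over the group, for counting error only), and at most 3 in any other library.

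In all, 3 of the 8 tested members rose and 0 fell in N2, and 3 rose and 1 fell in glp-1. Over all 15321 genes tested, 3.13% were called higher and 1.66% lower in N2, and 1.89% higher and 0.816% lower in glp-1, by edgeR at an adjusted p under 0.05. The median log2 change of the 8 members was 0.22 in N2 and 0.24 in glp-1, against -0.01 and -0.0046 for all genes tested. The genes that rose in both strains were lipl-1, lipl-2 and fil-1. The 1 fall was that of lipl-3, which entered the tests through the glp-1 mock libraries.

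**Figure D2:**
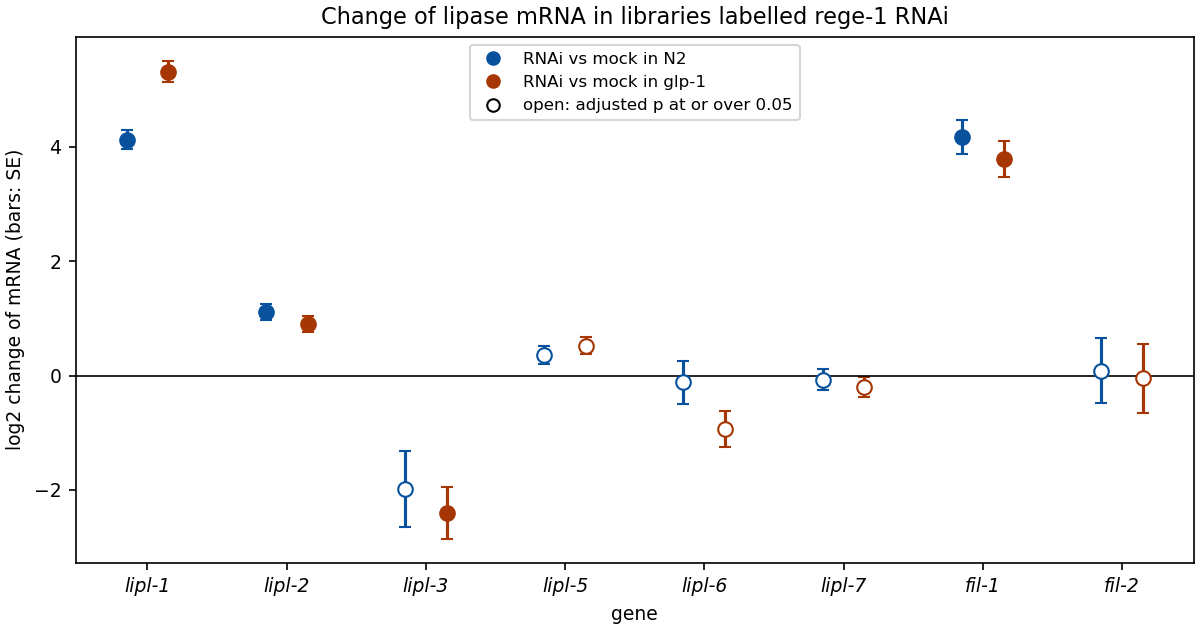
Log2 change of mRNA between libraries labelled RNAi and mock for the 8 tested genes, with bars of 1 SE, in N2 and in glp-1; filled points passed an adjusted p of 0.05 in edgeR. The points of lipl-1 and fil-1 lie between 3.79 and 5.32, those of lipl-2 near 1, and lipl-3 lies near -2 in both strains, filled in glp-1 alone.

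The make-up of the family by level differed in the libraries labelled RNAi. The summed level of the 10 genes was 371 to 398 CPM per kb in N2 mock and 779.6 to 909 in N2 RNAi, and in glp-1 it was 393 to 395 under mock and 683 to 782 with RNAi. The share of lipl-1 in that sum was 4.84 and 4.76% in N2 mock and 37.4 and 38.8% in N2 RNAi. In glp-1 it was 1.02 and 1.09% under mock and 23.7 and 21.8% in the libraries labelled RNAi. The level of lipl-5 was itself higher with RNAi, though its changes did not pass in edgeR. It went from 306 ± 23.7 to 392 ± 34.3 CPM per kb in N2 and from 334 ± 2.0 to 479 ± 53.5 in glp-1. Its share in the sum went from 81.0 and 77.9% in N2 mock to 47.1 and 45.8% in N2 RNAi, and from 84.9 and 84.6% to 66.1 and 64.6% in glp-1. These sums were not tested.

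**Figure D3:**
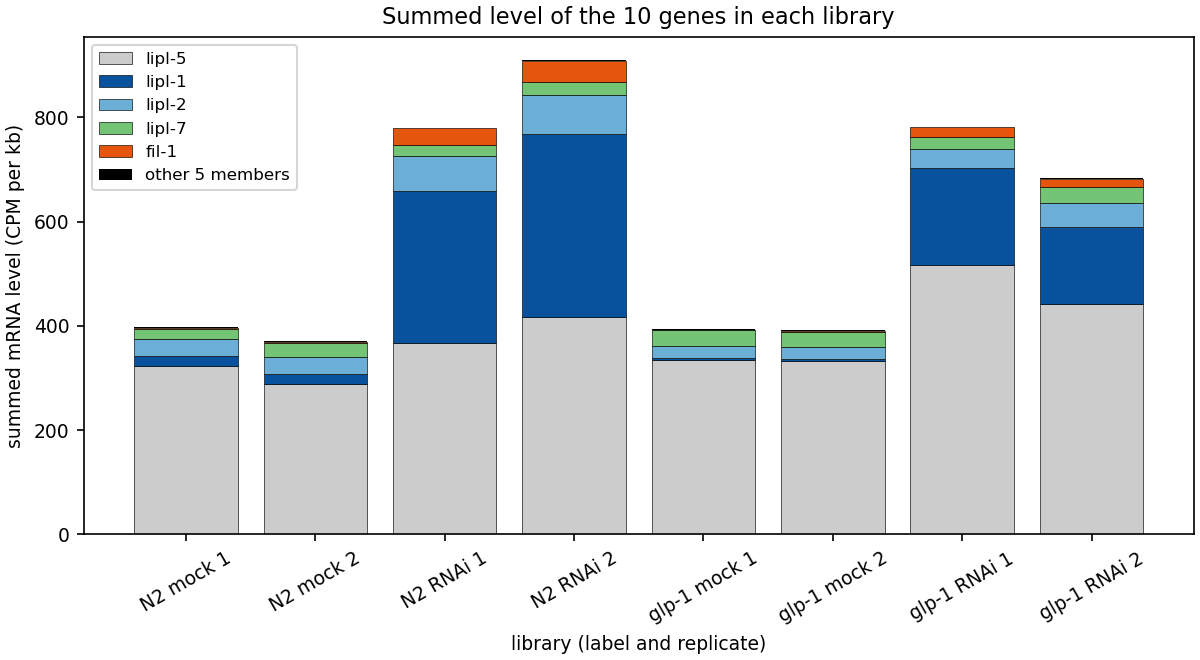
Summed level of the 10 genes in each library, in CPM per kb of coding length, stacked by gene from 0. The 4 libraries labelled RNAi reach 683 to 909 CPM per kb against 371 to 398 in the 4 mock libraries, with lipl-1 the widest added band in N2.

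Markers of the intestine moved with the same libraries. Of 14 tested intestine markers 7 rose and 1 fell in N2, and 6 rose and 0 fell in glp-1, among them the aspartyl protease gene asp-1 (log2 change 2.35 in N2 and 2.54 in glp-1) and vha-6, for a subunit of the intestinal proton pump (1.34 and 1.11). Their summed level was 3165 to 3442 CPM in N2 mock and 8076 to 8311 in N2 RNAi, and in glp-1 it was 2860 to 3033 under mock and 7197 to 7809 with RNAi, with 0 of them at 0. The median log2 change of the 14 markers was smaller than that of their sum, at 0.56 in N2 and 0.35 in glp-1, and markers such as elt-2 (0.35 and 0.22) and ges-1 (0.32 and 0.35), for a gut transcription factor and a gut esterase, did not pass. The sum is thus weighted to the abundant markers. As a percentage of that sum, lipl-1 went from 0.741 and 0.625% to 4.4 and 5.17% in N2, and from 0.172 and 0.172% to 2.89 and 2.52% in glp-1. That of fil-1 went from 0.052 and 0.0667% to 0.379 and 0.486% in N2. That of lipl-2 was 1.28 and 1.2% in N2 mock and 1.03 and 1.11% in N2 RNAi, and in glp-1 it was 0.94 and 0.902% against 0.583 and 0.78%. Against the sum lipl-2 was therefore not higher with RNAi, while its log2 changes of 1.11 and 0.91 lay above the median of the markers. The percentage of lipl-5 was lower with RNAi, going from 12.3 and 10.2% to 5.51 and 6.07% in N2 and from 14.2 and 13.3% to 8.03 and 7.43% in glp-1. The part of the intestine markers in the lipase results was not tested, and the share of the whole-worm RNA that came from the intestine was not measured. In the germline, body wall muscle, hypodermis and neuron lists 0 markers passed in either strain. Over all genes tested 3.13% rose and 1.66% fell in N2, and 1.89% rose and 0.816% fell in glp-1. At these shares such short lists can hold 0 calls, so this does not show that those tissues were unmoved.

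Whether the response differed between the strains was asked by the difference of the log2 changes, N2 minus glp-1. For lipl-1 it was -1.2 (SE 0.23, unadjusted p = 0.00024, edgeR adjusted p = 0.188), with the larger rise in glp-1, where mock was lower. It did not pass in edgeR, in which 0.0261% of all genes were called with a positive difference and 0.0% with a negative one. It passed in DESeq2, which called 30 genes in all (log2 -1.18, adjusted p = 0.00424), and in edgeR without glp-1 RNAi replicate 2 (log2 -1.33, adjusted p = 0.0126). For fil-1 the difference was 0.38 (SE 0.43, adjusted p = 0.902), for lipl-2 0.20 (SE 0.19, adjusted p = 0.892) and for lipl-3 0.42 (SE 0.94, adjusted p = 0.942). Of 8 members 0 passed in edgeR, 1 had an unadjusted p under 0.05 (5.4% of all genes), and 1 passed in DESeq2, which was lipl-1 each time.

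The comparison of glp-1 with N2 asked how strain, with its temperature, bears on the lipase genes. Under mock lipl-1 and lipl-2 were lower in glp-1, with log2 changes of -2.15 (SE 0.17, edgeR adjusted p = 1.36e-05) for lipl-1 and -0.59 (SE 0.14, adjusted p = 0.0204) for lipl-2. The genes lipl-3 and lipl-6 were higher, with 1.69 (SE 0.42, adjusted p = 0.0294) for lipl-3 and 1.18 (SE 0.33, adjusted p = 0.0467) for lipl-6. For lipl-3 the glp-1 mock libraries, high here, are also those that carried it past the minimum count. The 2 rises and 2 falls among 8 members stand against 6.49% of all genes called higher and 3.24% called lower. Only lipl-1 kept its call whichever library was left out. Those of lipl-2 and lipl-3 ended without any 1 of the 4 mock libraries (adjusted p from 0.0675 to 0.203), and that of lipl-6 ended without any mock or N2 RNAi library (0.0556 to 0.308) and with the replicate block (0.0531), while DESeq2 called lipl-1 and lipl-2 alone.

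In the libraries labelled RNAi lipl-1, lipl-2 and fil-1 were lower in glp-1 than in N2. The log2 changes were -0.95 (SE 0.15, edgeR adjusted p = 0.00273) for lipl-1, -0.79 (SE 0.13, adjusted p = 0.00371) for lipl-2 and -0.97 (SE 0.25, adjusted p = 0.0249) for fil-1. No member was called higher, where 10.6% of all genes were called higher and 7.54% lower. The call on fil-1 ended without N2 RNAi replicate 2 (adjusted p = 0.19), glp-1 RNAi replicate 1 (0.0718) or glp-1 RNAi replicate 2 (0.086). These strain comparisons use the same libraries as the RNAi comparisons above. Some tissue markers also differed between the strains. Of all genes 6.49% were higher and 3.24% lower under mock, and 10.6% higher and 7.54% lower in the libraries labelled RNAi. Beside these shares 1 call in a list is not read as a difference of the tissue. Under mock 3 of 8 neuron markers were higher, and 3 of 20 germline, 2 of 8 hypodermis, 1 of 8 muscle and 1 of 14 intestine markers were lower in glp-1. In the libraries labelled RNAi 6 of 20 germline markers and 1 of 14 intestine markers, the peptide transporter gene pept-1 (log2 change -0.88), were lower, 2 of 8 neuron markers were higher, and muscle (2 higher, 2 lower) and hypodermis markers (1 higher, 4 lower) went both ways. Their part in the lipase results was not tested.

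Intron counts of the members were few. For lipl-1, with 290 bases of intron, they were 3 and 0 in N2 mock, 12 and 2 in N2 RNAi, and in glp-1 0 and 2 under mock against 11 and 6 with RNAi. For lipl-2, with 318 bases, the N2 counts were 6 and 8 under mock against 21 and 16, and the glp-1 counts 3 and 4 against 13 and 7, so that the libraries labelled RNAi were the higher ones in both strains. The intron counts of lipl-5 lay between 12 and 22 in every library, and those of lipl-7 between 1 and 12. The 2 fil genes, with 93 and 79 bases of intron, had at most 1 intron count in any library.

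Only lipl-1, lipl-2 and lipl-5 could be tested on introns, and 0 of 3 passed in edgeR in either strain, where 1.07% of 5042 genes were called in N2 and 0.694% in glp-1. At an unadjusted p under 0.05, reached by 6.68% of genes in N2 and 6.66% in glp-1, there was 1 in N2, lipl-2 (log2 change 1.35, SE 0.56), and 2 in glp-1, lipl-2 (1.62, SE 0.67) and lipl-1 (3.05, SE 1.29). Averaged over both strains, a comparison chosen after seeing how few counts there were, the intron log2 change was 1.48 (SE 0.44, unadjusted p = 0.00284, adjusted p = 0.113) for lipl-2 and 2.59 (SE 0.9, unadjusted p = 0.00902, adjusted p = 0.251) for lipl-1, where 2.08% of genes were called and 8.47% had an unadjusted p under 0.05. The mRNA change in excess of the intron change was 1.90 (SE 1.35, adjusted p = 1.0) for lipl-1 and -0.28 (SE 0.52, adjusted p = 1.0) for lipl-2 in N2, and 2.12 (SE 1.64, adjusted p = 0.999) and -0.74 (SE 0.66, adjusted p = 0.999) in glp-1. Of 3 members 0 passed there, where 0.04% of 4999 genes were called in N2 and 0.0% in glp-1, and 0 had an unadjusted p under 0.05, against 4.36 and 5.02% of genes. At these counts a difference between the changes of mRNA and introns was not detectable, and with an SE above 1 for lipl-1 a large one could be missed.

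Other genes around lipase function moved in part. The counts of these lists stand beside 3.13% of all genes that rose and 1.66% that fell in N2. In glp-1 1.89% of all genes rose and 0.816% fell. Of 32 tested genes for lysosomal membrane proteins and hydrolases, 9 rose and 4 fell in N2 and 9 rose and 2 fell in glp-1, with a median log2 change of 0.15 and -0.01. Those with the lowest p in N2 were the acid sphingomyelinase gene asm-2 (2.95, SE 0.13), the glucocerebrosidase gene gba-1 (2.77, SE 0.14), the aspartyl protease gene asp-3 (3.06, SE 0.2) and a second acid sphingomyelinase gene, asm-3 (-3.09, SE 0.22). In glp-1 asm-2 (3.06, SE 0.13), gba-1 (2.58, SE 0.14), asp-3 (2.46, SE 0.19) and the acid ceramidase gene asah-1 (2.03, SE 0.16) led. The gene asp-3 is also expressed in the intestine.

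Of 19 genes for regulators of lysosomal lipolysis 2 rose in N2, ets-4 and the zinc finger factor gene pqm-1 (log2 change 1.34, SE 0.3, edgeR adjusted p = 0.0257), and ets-4 alone rose in glp-1. The mRNA of hlh-30, the activator of lipl genes in fasting, had log2 changes of 0.44 (SE 0.23, adjusted p = 0.485) for N2 and 0.23 (SE 0.23, adjusted p = 0.784) for glp-1. That of its opponent mxl-3 had 0.04 (SE 0.17, adjusted p = 0.971) and -0.16 (SE 0.17, adjusted p = 0.791). Under mock 2 of the 19 genes were higher in glp-1 than in N2 and 0 were lower, where 6.49% of all genes were called higher and 3.24% lower. They were mxl-3 (log2 change 0.87, SE 0.17, edgeR adjusted p = 0.00904) and nhr-80 (0.6, SE 0.17, adjusted p = 0.0499). Their part in the strain differences of the lipase genes was not tested. The genes ire-1 (0.08, SE 0.17, and -0.23, SE 0.17) and hsp-4 (0.45, SE 0.14, and 0.30, SE 0.14), on which fil induction is known to depend, did not pass with RNAi in either strain.

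Among 10 genes known to respond to fasting in either direction, 4 rose and 1 fell in N2 and 2 rose and 0 fell in glp-1. The hydroxyacyl-CoA dehydrogenase gene hacd-1 rose in both (log2 change 2.12, SE 0.14 and 0.98, SE 0.14), as did the desaturase gene fat-5 (2.73, SE 0.24 and 1.13, SE 0.22). The acyl-CoA synthetase gene acs-2 rose in N2 (1.55, SE 0.27), and its value in glp-1 was 1.04 (SE 0.25, edgeR adjusted p = 0.0588), with a difference between the strains that did not pass (adjusted p = 0.875). The carnitine palmitoyltransferase gene cpt-3 rose in N2 (2.34, SE 0.22), from 1.73 ± 0.133 to 8.78 ± 0.996 CPM. The glp-1 level of cpt-3 was 6.36 ± 0.927 CPM under mock and 6.36 ± 0.299 with RNAi, and it was the only gene of the lists called for a difference between the strains (log2 difference 2.34, SE 0.29, edgeR adjusted p = 0.0248). The lysosomal gene asm-3 came next, with -3.09 in N2 and -0.97 in glp-1 and a difference of -2.12 (SE 0.3) at an adjusted p of 0.05, which before rounding lay just above the threshold. Under mock asm-3 was already lower in glp-1 than in N2, at 12.9 ± 0.536 against 83.5 ± 17.1 CPM (log2 change -2.7, SE 0.21). Already higher in glp-1 under mock were cpt-3 (1.87, SE 0.22), fat-5 (2.4, SE 0.24) and hacd-1 (1.39, SE 0.14). In all, 6 of the 10 fasting genes were called higher there and 0 lower, where 6.49% of all genes were higher. The part of these mock levels in the responses was not tested.

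Few cytosolic lipolysis genes passed, and a list of 10 is too short to set 1 call against the 1.66% of all genes that fell in N2. Of 10 genes for cytosolic lipolysis and lipid droplets, 1 fell in N2, the droplet dehydrogenase gene dhs-3 (log2 change -0.70, SE 0.14, edgeR adjusted p = 0.00934), and 0 passed in glp-1. The adipose triglyceride lipase gene atgl-1 had log2 changes of 0.58 (SE 0.16, adjusted p = 0.0792) and 0.21 (SE 0.16, adjusted p = 0.719). Of the 17 listed genes of the lips family of lipases 10 were tested, and lips-5 alone rose in N2 (1.06, SE 0.21, adjusted p = 0.0121) and 0 passed in glp-1.

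**Figure D4:**
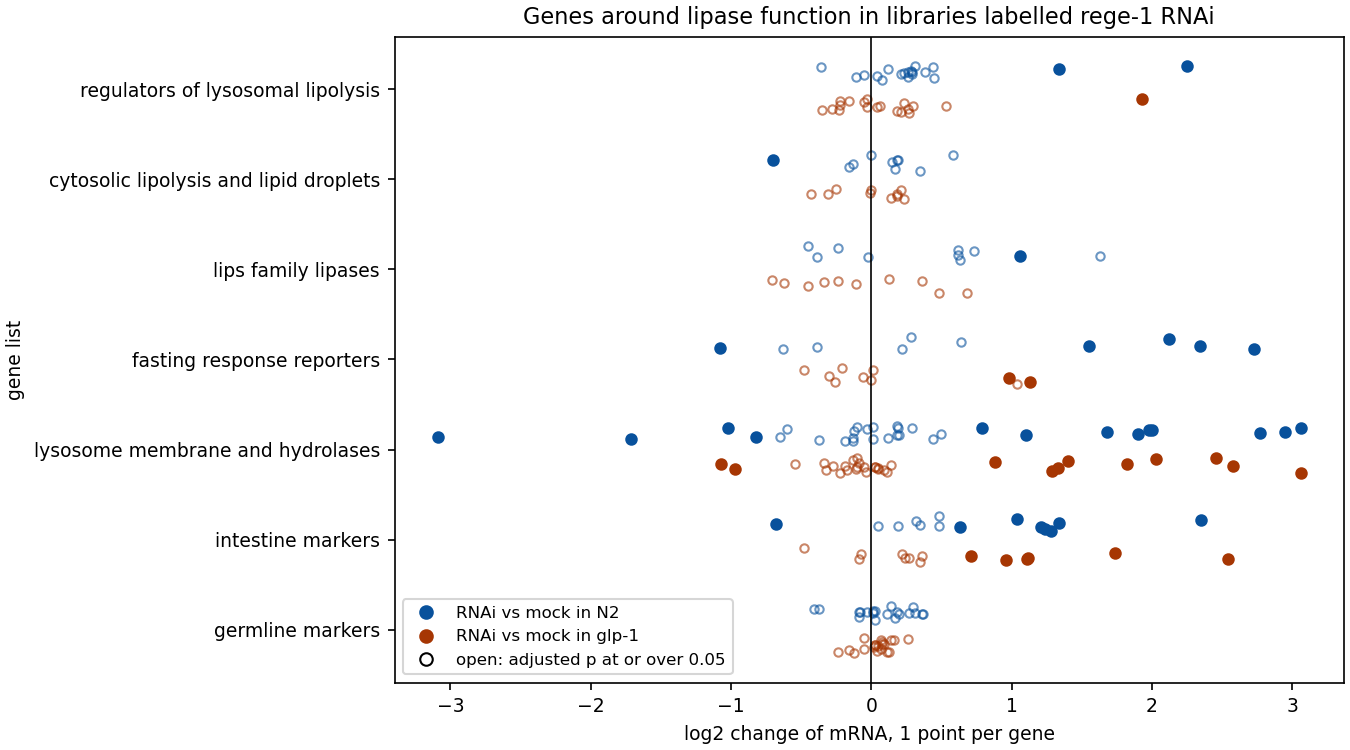
Log2 change of mRNA between libraries labelled RNAi and mock for each tested gene of 7 lists, with N2 and glp-1 in separate rows; filled points passed an adjusted p of 0.05 in edgeR and open points did not. Filled points lie on both sides in the lysosome list, 9 to the right in each strain and 4 (N2) and 2 (glp-1) to the left, and mostly on the right in the intestine list, while the cytosolic lipolysis list holds 1 filled point, in N2, and the germline list none.

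The patterns of the 4 members that changed in either strain were set beside 10142 genes whose mean reached 5 CPM or more in some group, by Pearson's r of log2 CPM over the 8 libraries. Nearest to lipl-1 were the C-type lectin gene clec-52 (r = 0.995), W02B12.1 (0.9913) and the saposin-like gene spp-4 (0.99). Nearest to fil-1 were the nuclear receptor gene nhr-168 (0.9979), the intestinal actin gene act-5 (0.9934) and F09C8.1 (0.9919). For lipl-2 they were the peroxisomal protease gene lonp-2 (0.9882), Y55F3BR.2 (0.9858) and Y16B4A.2 (0.9817), and for lipl-3 the glutathione transferase gene gsto-1 (0.9664), the zinc transporter gene zipt-2.1 (0.966) and T12B3.3 (0.9621). Among the members r was 0.97 between lipl-1 and fil-1, 0.93 between lipl-1 and lipl-2, and -0.91 between lipl-1 and lipl-3. The values of lipl-3 rest on few counts in the libraries labelled RNAi (5 and 1 in N2, 7 and 9 in glp-1). It was also kept through the glp-1 mock libraries, where it was high, so its r values are no separate sign of a fall. All these values rest on 8 libraries that share the same mock and RNAi labels, and likeness of pattern is not likeness of size, since spp-4 had log2 changes of 1.99 in N2 and 2.23 in glp-1.

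The nearest protein-coding genes on each side of the members mostly did not pass, as was so for most genes. Of 20 such neighbours 16 were tested. In N2 1 passed, F31F7.1, 871 bases from fil-2 (log2 change 0.89, edgeR adjusted p = 0.000838), and in glp-1 1 passed, dhrs-4. Over all genes tested 3.13% rose and 1.66% fell in N2, and 1.89% rose and 0.816% fell in glp-1. With so few neighbours, 1 call per strain is not read as more or less than these shares. Next to lipl-1, nid-1 lies 2765 bases away with log2 changes of -0.21 (SE 0.18, edgeR adjusted p = 0.753) for N2 and -0.46 (SE 0.18, adjusted p = 0.342) for glp-1. On its other side the short-chain dehydrogenase gene dhrs-4, 916 bases away on the same strand, had 0.24 (SE 0.14, adjusted p = 0.559) in N2 and rose in glp-1 (0.78, SE 0.14, adjusted p = 0.00985). The neighbours of fil-1 did not pass, with T01C3.3 at -0.07 (SE 0.18) and 0.24 (SE 0.17) and irld-14 at 0.23 (SE 0.31) and -0.31 (SE 0.27).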

How the data were processed

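Raw counts of each gene in each library were deposited by the authors, in 1 table for mRNA and 1 for introns. No source used here names the aligner, build, counting tool or use of strand, so genes that overlap could share counts. Positions and names come from the Ensembl release 115 annotation (WBcel235) and a WormBase name table, and the files hold no coordinates. The deposited log2 tables were not used. No sequence is shown.

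Counts were fitted in edgeR 4.0.16 (R 4.3.3) by the quasi-likelihood method with TMM scaling, all 4 groups together, after filterByExpr with a minimum count of 10, which kept 15321 genes for mRNA and 5042 for introns. Tests are two-sided with Benjamini-Hochberg adjustment over all genes tested and a threshold of 0.05. The change of mRNA beyond introns was tested over 4999 genes with the library as a block. Alternatives were a replicate block, RLE factors, library size alone, the compared groups alone, no filter, DESeq2 1.42.0 and each library left out. Replicates differed by more than counting error in each group. The script was tested on simulated data, where fold changes were recovered close to their set sizes and the share of false calls was above the threshold, so calls near it are less firm.

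Every member is described, up to 4 genes with the lowest p are named per list, and 3 genes per changed member by likeness of pattern. The members, lists and comparisons were chosen with earlier results of these data known. With 2 libraries per group the precision of low genes is limited, and floors cover counting error only.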

Additional observations from a re-analysis of the deposited data

How the results depend on the processing

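In all 14 alternatives lipl-1, lipl-2 and fil-1 stayed called in N2, and lipl-1 and fil-1 in glp-1. Leaving out single libraries, where the lone library left is assumed to vary like the other groups, gave 2 to 5 called members in glp-1, 0 to 1 for the strain difference of the response, and 1 to 4 for glp-1 against N2 under mock. DESeq2 called 1 member for the strain difference and 2 for glp-1 against N2 under mock, and the cause was not tested. The replicate numbers do not pair the libraries (correlations of deviations from -0.114 to 0.169), and the replicate block changed 1 call, lipl-6 under mock (adjusted p = 0.0531). With library size alone the median of all genes shifted by 0.13 for glp-1 against N2 under mock and 0.16 in the libraries labelled RNAi, lipl-5 passed in the latter (adjusted p = 0.0458), and 9 of 40 levels per kb moved by more than their SD. Over all genes the difference between strains had 4 calls against 11 with no filter, 8 with the replicate block and 30 in DESeq2, and fitting the compared groups alone gave 2447 against 1491 calls for the strains under mock and 872 against 2774 with RNAi. Leaving out single libraries moved the 414 calls of glp-1 between 188 and 1491, and the 4 of the difference between 0 and 405, with 1491 and 405 both without glp-1 RNAi replicate 2. Intron calls went from 54 to 28 in N2 at library size alone and from 35 to 59 in glp-1 with no filter.

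Signs that turned belong to values that did not pass. With single libraries left out, the RNAi change in N2 ranged from -0.27 to 0.16 for lipl-7, -0.32 to 0.60 for fil-2 and -0.35 to 0.16 for lipl-6, and that in glp-1 from -0.63 to 0.97 for fil-2. The difference between strains ranged from -0.07 to 0.36 for lipl-7, -0.87 to 0.72 for fil-2, -1.09 to 1.16 for lipl-3 and -0.25 to 0.85 for fil-1. For glp-1 against N2, fil-2 ranged from -1.41 to 0.20 under mock and lipl-7 from -0.0033 to 0.41 in the libraries labelled RNAi. On introns lipl-5 ranged from -0.17 to 0.88 in N2 and from -0.24 to 0.29 over both strains, with 0.04 at library size alone. For mRNA beyond introns the ranges in N2 were -0.67 to 0.08 for lipl-2, -5.41 to 3.66 for lipl-1 and -0.60 to 0.59 for lipl-5, and in glp-1 -4.35 to 3.14 for lipl-1, with both low ends of lipl-1 where the lone mock library had 0 intron counts.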
